A study of Mus musculus with 8 samples.

Results

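Dopamine acts through 5 receptor genes, Drd1 to Drd5, and their transcripts were read in the ventral tegmental area (VTA) of juvenile mice after social stress. The members were taken by name, and all 5 were found among the 54735 genes of the count table. Bilateral punches of the VTA, 0.5 mm wide, came from DBA2/J pups that the labels give as male and as P21, while the methods place the collection at postnatal day (PD) 22. Pups of the social stress (SS) group were put with a gonadectomized adult CD1 male for 30 min on each day between PD 14 and PD 21. Litters of the unhandled control (CTR) group stayed undisturbed with their mothers. Each group had 4 mice with 1 library each, named by group and replicate number (such as CTR-1). Where 4 values of a group are listed, they follow the replicate numbers, which are 1, 2, 3 and 5 for CTR and 2, 3, 4 and 5 for SS. A litter could give up to 2 mice of a sex, and the labels do not tie the mice to litters.

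All dopamine receptors are G protein-coupled. The D1 class (Drd1 and Drd5) couples to stimulatory G proteins and raises cyclic AMP, whereas the D2 class (Drd2, Drd3 and Drd4) couples to inhibitory G proteins. Midbrain dopamine neurons carry D2 receptors on their own cell bodies and terminals, where the receptor acts as an autoreceptor that opens GIRK potassium channels and slows firing and dopamine release. Drd1 transcripts are mostly known from neurons that receive dopamine, above all in the striatum and cortex. In punches, fewer cells of a type and less RNA per cell cannot be told apart.

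Library totals ran from 20036086 to 47319997 counts. Values are given in CPM (counts scaled to library size) after TMM normalization, and levels of different genes are compared as CPM per kb of exon. Ratios of Drd2 to other genes use CPM and are compared between the groups only. Libraries differed in richness. Among 1989 genes that averaged 1 to 3 CPM, CTR-1 lacked 434 and CTR-2 lacked 354, whereas each of the remaining 6 libraries lacked 1 to 94. Transcripts of the sex chromosomes went against the labels in CTR-5 and SS-5, which held 14997 and 6551 counts of Xist and 3 and 0 counts of Y-linked genes. The other 6 libraries held at most 3 counts of Xist and from 2293 to 7892 Y-linked counts. Receptor values are therefore also given without CTR-5 and SS-5.

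The table names genes by symbol, and positions come from GENCODE. Drd2 lies on the plus strand of chromosome 9, from 49340627 to 49408177 in GRCm38, the same build as mm10, with 2547 bases of exon in 8 exons. Its long and short splice forms are counted together here. Drd1 (chromosome 13, 54051183 to 54055705) has 3628 bases of exon and Drd5 (chromosome 5, 38319367 to 38322518) a single exon of 3152 bases. Drd3 (chromosome 16, 43754026 to 43822932) and Drd4 (chromosome 7, 141292006 to 141296464) have 1712 and 3381 bases. The exons of Drd5 overlap those of the antisense gene Gm26560 over 1531 bases. That gene held 49 counts over the 8 libraries, and since it is not stated whether the counting used strand, reads of both genes cannot be told apart there. No other receptor had exons under another annotated gene.

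The promoter of Drd2 is shown because Drd2 had the largest difference of the 3 tested receptors, and it is the window from 250 bases before to 50 bases after the RefSeq start (GRCm38.p6, plus strand, chr9:49340153-49340452). RefSeq sets this start upstream of the start in GENCODE. Capitals mark GGGCGG, the GC box bound by Sp1-type factors, or its complement.
Drd2: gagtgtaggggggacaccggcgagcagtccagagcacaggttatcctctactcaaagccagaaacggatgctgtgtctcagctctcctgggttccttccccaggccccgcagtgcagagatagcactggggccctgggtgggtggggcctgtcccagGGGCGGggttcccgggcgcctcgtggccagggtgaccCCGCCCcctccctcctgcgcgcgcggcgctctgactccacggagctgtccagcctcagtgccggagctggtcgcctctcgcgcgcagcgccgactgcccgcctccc
The window holds 70.3% G and C, compared with a median of 52.7% over 32851 promoters of the same length, and 2 GC boxes. RefSeq gave a window for all 5 receptors. That of Drd3 (plus strand, chr16:43761971-43762270) lies inside the gene of GENCODE, which begins at 43754026. The absence of a motif in it therefore says nothing about the GENCODE start of Drd3. GC boxes were found 2 times for Drd5 and 3 times for Drd4, 1 time in each of both windows of Drd1, and not for Drd3. Of all promoters, 35.7% hold the motif on either strand. Neither TATAAA nor AAAGGTCA (the NBRE, the site of Nurr1) nor TAATCC (a site of bicoid-type homeobox factors such as Pitx3) was present in any receptor window. These are found in 13.6%, 1.51% and 7.06% of all promoters, on either strand. A letter match is a description of the window and does not show binding.

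Drd2 was by far the most abundant dopamine receptor transcript of the VTA, and its level in SS was 46.4% of that in CTR. Its counts were 1998, 1699, 1254 and 3314 for CTR, and 1871, 1943, 726 and 819 for SS. On the CPM scale the CTR libraries stood at 103, 68.6, 54.2 and 84.4, and the SS libraries at 44.7, 40.3, 27.3 and 31.5. The groups did not overlap, with SS the lower, and the gap between the groups ran from 44.7 CPM in SS-2 to 54.2 CPM in CTR-3. CTR averaged 77.6 ± 21.1 CPM (SD, n = 4), against 36.0 ± 7.95 for SS (SD, n = 4). An exact two-sided permutation test over the 70 assignments of the log2 CPM values gave p = 0.029, the smallest p of this design. CPM did not overlap between the groups in 4.67% of all 16538 tested genes, and in 2.21% with SS lower.

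In the test across all genes the difference of Drd2 did not pass the threshold. Its log2 fold change was -1.11 (SE 0.21, 95% interval -1.56 to -0.65), with an unadjusted p of 0.000204 and an adjusted p of 0.12 by edgeR's quasi-likelihood test (Benjamini-Hochberg over 16538 genes). It ranked 28 by p, and the same test called 14 genes, that is 0.0847%. With DESeq2 and default options, the method of the study, the adjusted p was 0.00029, in a test that called 0.419% of 19349 genes. The bias-adjusted quasi-likelihood estimate of edgeR called Drd2 too (adjusted p = 0.034), and limma voom did not (adjusted p = 0.097). Drd2 is among the genes that the study chose on these libraries, so the call by DESeq2 is not independent evidence.

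The direction did not rest on 1 library. With each library left out in turn, the log2 fold change of Drd2 stayed between -1.25 and -0.94, and the adjusted p, from edgeR's quasi-likelihood fit, lay between 0.065 and 0.61. Over the 6 libraries with male-typical sex transcripts it was -1.01 (adjusted p = 0.30 in the same test). Without CTR-1 and CTR-2, the less rich libraries, it was -0.94 (adjusted p = 0.29).

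**Figure D1:**
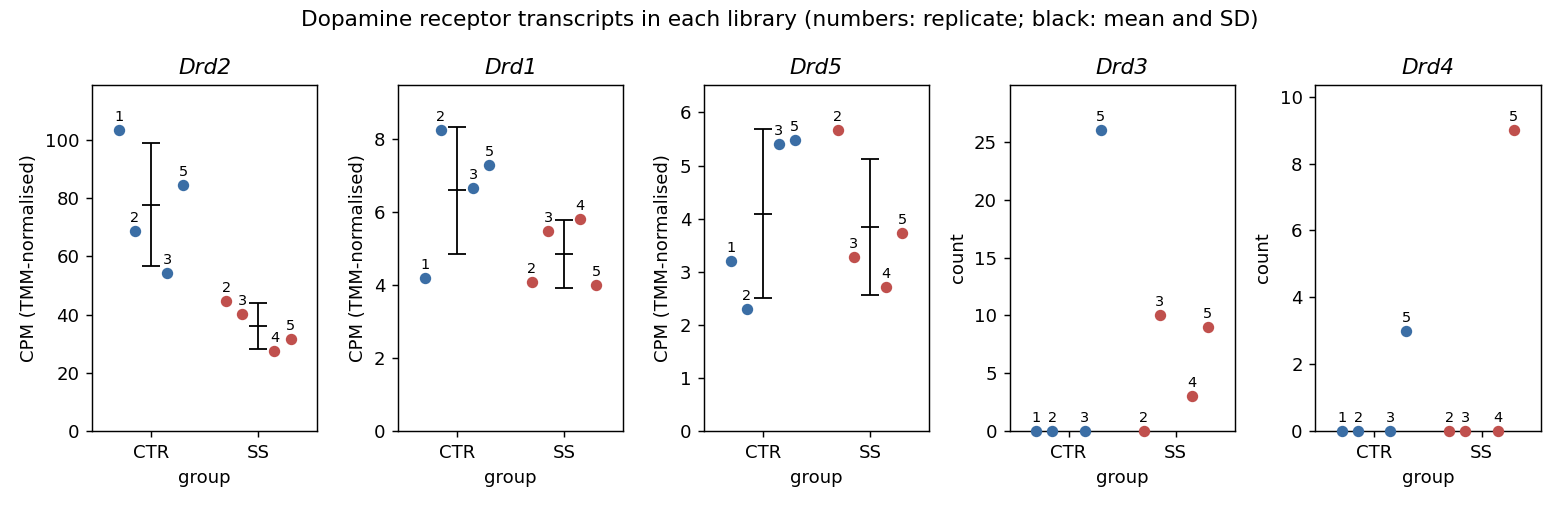
Transcripts of the 5 dopamine receptors in each library, as CPM for Drd2, Drd1 and Drd5 and as counts for Drd3 and Drd4, with the group on the horizontal axis. Points are libraries with their replicate number, and black bars are the mean and SD of 4 libraries. The SS points of Drd2 (27.3 to 44.7 CPM) all lie below the CTR points (54.2 to 103 CPM), while the groups overlap for the other receptors.

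Drd1, the main stimulatory dopamine receptor of the forebrain, was a minor transcript. It had 81, 204, 154 and 286 counts in the CTR libraries, and 171, 264, 154 and 104 counts in those of SS. These were 4.19, 8.24, 6.65 and 7.28 CPM in CTR and 4.09, 5.48, 5.80 and 4.01 CPM in SS. CTR-1 fell within the range of the SS libraries, and the other CTR libraries lay above it. CTR averaged 6.59 ± 1.73 CPM (SD, n = 4), against 4.84 ± 0.929 for SS (SD, n = 4). The log2 fold change of -0.45 (SE 0.31, 95% interval -1.12 to 0.23) did not pass the threshold (adjusted p = 0.80 by edgeR's quasi-likelihood test, exact permutation p = 0.14). It became -0.61 without CTR-1, where its unadjusted p was 0.040 and its adjusted p 0.62. Over the 6 libraries with male-typical sex transcripts it was -0.31.

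Drd5, the second stimulatory receptor, with a higher affinity for dopamine, was at a similar level in both groups. Its counts were 62, 57, 125 and 215 for CTR, and 237, 158, 72 and 97 for SS. In CPM the CTR libraries spanned 2.30 to 5.48 and the SS libraries 2.71 to 5.67, so that the ranges almost coincided. CTR averaged 4.10 ± 1.59 CPM (SD, n = 4), against 3.85 ± 1.28 for SS (SD, n = 4). The log2 fold change was -0.09 (SE 0.42, adjusted p = 0.98 by edgeR's quasi-likelihood test, exact permutation p = 0.94). Its 95% interval, from -0.998 to 0.82, includes changes nearly as large as that of Drd2. The sign turned to 0.10 over the 6 male-typical libraries, and it turned without CTR-3, CTR-5 or SS-4. The log2 fold change was -0.49 without CTR-1 and CTR-2, with an adjusted p of 0.92.

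Drd3 and Drd4, the other inhibitory receptors, were at the limit of detection and did not pass the filter on low counts, so they were left out of the edgeR test across genes. With that filter removed, the unadjusted p of edgeR was 0.99 for Drd3 and 0.41 for Drd4, and with DESeq2 it was 0.997 and 0.551. Drd3 had 26 counts in CTR-5, 10 in SS-3, 9 in SS-5 and 3 in SS-4. It had none in SS-2 and in the other 3 libraries of CTR. Drd4 had 9 counts in SS-5, 3 in CTR-5 and none in the other 6 libraries. A count of 0 allows up to 3 counts, that is 0.155 CPM in CTR-1 and 0.0717 CPM in SS-2 (counting error only). Both libraries with Drd4 counts are those with female-typical sex transcripts, and among the other 6 libraries Drd3 was counted in SS-3 and SS-4 alone. CTR-5 also had the most detected genes, 23172, compared with 17446 in CTR-1. The part of these differences in the counts of Drd3 and Drd4 was not tested. A difference between SS and CTR was not detectable at this depth.

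Of the 5 receptors, 3 could be tested and 0 were called by edgeR's quasi-likelihood test at an adjusted p under 0.05. At an unadjusted p under 0.05, Drd2 alone passed, as did 6.55% of all tested genes (3.7% with SS lower). DESeq2 with default options called 1 receptor, Drd2, and limma voom called 0.

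Measured per length, the receptors in CTR stood in the order Drd2 (30.5 ± 8.28 CPM per kb), Drd1 (1.82 ± 0.477), Drd5 (1.30 ± 0.505), Drd3 (0.0967 ± 0.193) and Drd4 (0.00565 ± 0.0113) (SD, n = 4). In SS the order was the same, at 14.1 ± 3.12, 1.33 ± 0.256, 1.22 ± 0.407, 0.0974 ± 0.0858 and 0.0256 ± 0.0513 CPM per kb. Drd2 stood above Drd1 in 8 of 8 libraries, since its lowest level was 10.7 CPM per kb in SS-4 and the highest level of Drd1 was 2.27 in CTR-2. Drd1 and Drd5 did not differ beyond their spread: Drd1 was the higher in 4 of 4 CTR but in 2 of 4 SS libraries. The level of Drd5 per kb uses its full exon length, of which 1531 bases overlap Gm26560. Reads there may not all have been counted for Drd5, so its order beside Drd1 and the shares that include it are uncertain to that extent. Drd5 stood above Drd3 in 8 of 8 libraries. Drd3 was above Drd4 in 4 libraries and both were at 0 in the other 4. Among 16455 tested genes with a known exon length, 90.6% had a lower level than Drd2 in CTR and 79.1% in SS. For Drd1 these shares were 32.7% and 27.2%, and for Drd5 27.1% and 25.9%.

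Drd2 made up 89.9 ± 3.82% of the summed receptor level in CTR (CPM per kb, SD, n = 4) and 83.7 ± 2.32% in SS. The D1 class together stood at 3.12 ± 0.704 CPM per kb in CTR and 2.56 ± 0.269 in SS. Within a library, the CPM of Drd2 was then set against that of each other receptor. The log2 ratio of Drd2 to Drd1 differed by -0.68 between SS and CTR (exact two-sided permutation p = 0.14). Against Drd5 the difference was -1.04 (exact permutation p = 0.057, and 0.086 without a prior count). The first difference was -0.33 without CTR-1, and the second was -0.39 without CTR-1 and CTR-2. Neither reached the threshold, so that the lower Drd2 was not shown to be particular to it among the tested receptors. Against Drd3 and Drd4, which were at 0 in 4 and 6 libraries, the differences of -1.77 and -1.48 depend on the prior count (exact permutation p = 0.17 and 0.086). The difference against Drd4 was -0.76 without SS-5.

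The autoreceptor was next set beside the genes that make, load and take up dopamine in the same neurons. All 4 of these genes had a much larger difference than Drd2. Th, the rate-limiting enzyme of dopamine synthesis, stood in SS at 6.33% of its CTR level, Ddc, the following enzyme, at 14.5%, Slc18a2, the vesicular monoamine transporter, at 15.2%, and Slc6a3, the dopamine transporter, at 1.38%. Each was called lower in SS by edgeR's quasi-likelihood test, with adjusted p-values of 0.00053 for Th, Ddc and Slc6a3 and 0.036 for Slc18a2. The study picked these genes on these libraries, so their direction is no independent evidence.

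For each CPM of Slc6a3 there was 0.172, 0.205, 0.223 and 0.138 CPM of Drd2 in the CTR libraries. In the SS libraries the ratio was 14.4, 14.8, 3.67 and 2.75. The log2 value of this ratio was 5.21 higher in SS (exact two-sided permutation p = 0.029). Ratios are of CPM without exon length, so a value of 1 does not mean equal levels. The log2 difference between the groups does not depend on length. For Th the ratio was 0.219, 0.426, 0.320 and 0.262 in CTR and 2.85, 2.55, 1.94 and 1.24 in SS. Its log2 value was 2.78 higher in SS (exact permutation p = 0.029). For Ddc the ratio was 0.359, 0.424, 0.448 and 0.351 in CTR and 1.41, 1.28, 0.973 and 1.20 in SS, with a log2 difference of 1.61 (exact permutation p = 0.029). In these 3 genes the groups did not overlap. For Slc18a2 the ratio was 0.333 to 0.690 in CTR and 0.676 to 2.81 in SS. Here SS-5 fell within the CTR range, and the log2 difference of 1.65 had an exact permutation p of 0.057. Adjusted over the 8 comparisons of Drd2 with another gene, the smallest p-values became 0.076, so none passed after this correction. With 4 libraries a group the raw p cannot go below 0.029. The study picked Slc6a3, Th, Ddc and Slc18a2 on these libraries, and each had a larger difference than Drd2. Higher ratios in SS were thus built into that choice, and their p-values are no independent evidence.

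**Figure D2:**
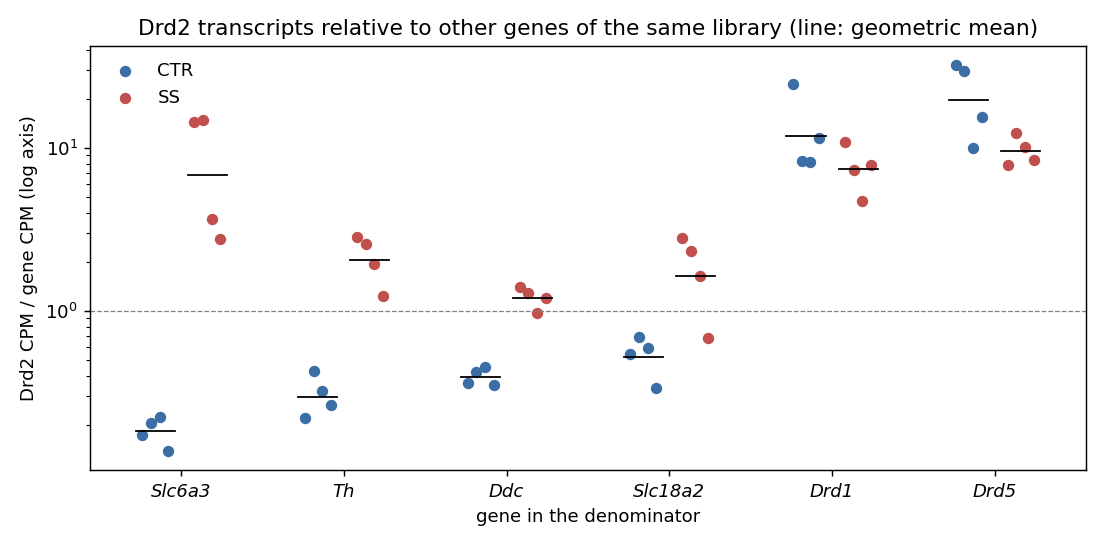
Ratio of Drd2 CPM to the CPM of another gene in the same library, on a log axis, for the genes named on the horizontal axis. Points are libraries (4 CTR in blue, 4 SS in red), lines are geometric means and the dashed line is a ratio of 1. Ratios do not take exon length into account, so the dashed line does not mark equal levels. Against Slc6a3, Th and Ddc the SS points lie above all CTR points, whereas against Drd1 and Drd5 the groups overlap.

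The order of the libraries was the same for Drd2 and Ddc in CTR and partly alike in SS, but not alike for all of these genes. In CTR, Drd2 was highest in CTR-1, followed by CTR-5, CTR-2 and CTR-3, and Ddc had the same order, at 288, 241, 162 and 121 CPM. In SS, Drd2 and Ddc were both highest in SS-2 (44.7 and 31.8 CPM) and next highest in SS-3 (40.3 and 31.4 CPM). SS-4 and SS-5 stood in opposite order, at 27.3 and 31.5 CPM for Drd2 and at 28.1 and 26.3 CPM for Ddc. Slc6a3, Th and Slc18a2 were highest in SS-5, at 11.5, 25.5 and 46.6 CPM.

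Most of the listed marker genes of the dopamine neuron were lower in SS, as was Drd2. Of 12 markers, 11 were lower in SS, as were 8173 of all 16538 tested genes, and 7 were called by edgeR's quasi-likelihood test, as were 0.0847% of all tested genes. The study chose 8 of the 12 on these libraries, and all 7 called markers are among these 8. The number called is therefore no independent evidence. Of the markers that the study did not choose, none was called. The summed level of the list was 2841, 1685, 1344 and 2476 CPM for CTR, and from 546 to 599 CPM for SS. Pitx3, a transcription factor of these neurons, had no count in at least 1 SS library. Nr4a2 (Nurr1) was the only marker of the 12 with a log2 fold change above 0, and the others that the study did not choose were lower in SS. Nr4a2 averaged 69.8 ± 19.5 CPM for CTR, against 77.9 ± 13.5 for SS (SD, n = 4), with 923 counts or more in every library. The part of this marker list in the difference of Drd2 was not tested.

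Markers of forebrain neurons and of the hypothalamus and mammillary region were read for Drd1, whose transcripts are mostly known from striatum and cortex. Of 9 markers of striatal projection neurons, 0 were called and 7 were lower in SS. The median of their log2 fold changes was -0.47, compared with 0.00 over all tested genes. Their summed level was 181 to 302 CPM in CTR and 184 to 205 CPM in SS. In CTR it was highest in CTR-2, as was Drd1, but lowest in CTR-3, whereas Drd1 was lowest in CTR-1. Of 8 markers of excitatory neurons of cortex and hippocampus, 0 were called and 6 were lower. Their summed level was 55.8, 308, 109 and 560 CPM for CTR, and 49.1 to 129 CPM for SS. CTR-1 was the lowest CTR library both in these markers and in Drd1, whereas the highest was CTR-5 in these markers and CTR-2 in Drd1. Tbr1, Emx1 and Fezf2 were among those with no count in some library. Of 10 markers of hypothalamus and mammillary region, 7 passed the filter, all 7 with a log2 fold change above 0 and 0 called, and Avp had no count at all. Their sums were 74.2 to 146 CPM in CTR and 139 to 175 CPM in SS. The part of these lists in the receptor values was not tested.

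No gene of the signalling chain of the receptors, and none of their partner receptors, was called. Of 51 genes in 6 groups, all 51 passed the filter. By edgeR's quasi-likelihood test 0 were called, 9 had an unadjusted p under 0.05 (6 lower and 3 higher in SS), and DESeq2 with default options called 0 too. The 9 genes are 17.6% of the 51, compared with 6.55% of all tested genes, and 2 of the 9 are partner receptors. CPM did not overlap between the groups in 4 of the 51 (7.84%), compared with 4.67% of all tested genes. The median log2 fold change was -0.08, and none differed by more than 1 on this scale.

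The 10 G protein subunits had log2 fold changes from -0.27 (Gng7, a gamma subunit that joins Golf) to 0.03 (Gnai1, an inhibitory alpha subunit), with 0 at an unadjusted p under 0.05. Gnas, the stimulatory alpha subunit and the most abundant per length, averaged 2494 ± 394 CPM for CTR, against 2379 ± 47.5 for SS (SD, n = 4).

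In the cyclic AMP arm, the 9 genes spanned -0.59 to 0.12. The lowest value was that of Ppp1r1b, which encodes DARPP-32, a phosphatase inhibitor switched by D1 and D2 signals in opposite ways. It had 28.6, 31.3, 20.8 and 29.7 CPM for CTR, and 15.1, 23.6, 14.3 and 19.99 CPM for SS. The groups overlapped at CTR-3 and SS-3, and the log2 fold change of -0.59 (SE 0.20) had an adjusted p of 0.74 by edgeR's quasi-likelihood test. Prkaca, the catalytic subunit of protein kinase A and the most abundant of this arm per length, had a log2 fold change of -0.04, and Pde4b, which breaks down cyclic AMP, one of 0.12.

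The GIRK channels, through which the autoreceptor slows firing, had 4 subunits tested and 0 called. Kcnj6, which encodes GIRK2, the subunit of dopamine neurons, was at 6.20, 16.8, 9.72 and 21.4 CPM in the CTR libraries and at 8.25 to 10.9 CPM in SS, so that the SS range lay within the CTR range. The log2 fold change, -0.55 with an SE of 0.33, was not called (adjusted p = 0.78 by edgeR's quasi-likelihood test). Kcnj9 (GIRK3), the most abundant subunit per length, had one of 0.22 (SE 0.14).

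The RGS proteins speed the switching off of G proteins. Of 7 genes, 6 had a log2 fold change below 0, and Rgs6 (-0.46, SE 0.16) and Rgs7 (-0.35, SE 0.14) had an unadjusted p under 0.05. Rgs6 was at 58.9, 96.8, 64.8 and 59.2 CPM in CTR and at 47.5 to 54.5 CPM in SS. The groups did not overlap, as in 4.67% of all tested genes, and its adjusted p was 0.75 by edgeR's quasi-likelihood test. Rgs9 had the highest log2 fold change (0.22), and Rgs4, the most abundant per length, had one of -0.10.

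Among 17 kinases, arrestins and receptor-binding proteins, 1 had an unadjusted p under 0.05 with a lower value in SS (Ppp1r9b) and 3 with a higher one (Gprasp1, Flna and Arrb2). Ppp1r9b (spinophilin), a scaffold that binds D2 receptors, was at 637, 767, 612 and 677 CPM in CTR and at 523, 535, 550 and 570 CPM in SS. Gprasp1, which sorts internalized D2 receptors for breakdown, was at 764, 905, 975 and 979 CPM in CTR and at 1170, 1187, 1100 and 1027 CPM in SS. Neither gene overlapped between groups, in opposite directions, and Arrb2 did not overlap either. Such separation was found in 4.67% of all tested genes. The log2 fold changes of Ppp1r9b and Gprasp1, -0.31 (SE 0.08) and 0.31 (SE 0.09), had adjusted p-values of 0.54 and 0.64 by edgeR's quasi-likelihood test. Flna, an actin-binding protein that anchors D2 receptors, had the highest value of this group, 0.58 (SE 0.22, adjusted p = 0.75 in the same test).

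Of the 4 partner receptors, all had a log2 fold change below 0 and 0 were called. Ntsr1, the neurotensin receptor of dopamine neurons, had the lowest. It was at 75.4, 38.1, 52.2 and 59.3 CPM for CTR, and at 22.5, 24.0, 28.4 and 44.6 CPM for SS. Only SS-5 reached into the CTR range, above CTR-2, and the log2 fold change was -0.92 (SE 0.24, adjusted p = 0.51 by edgeR's quasi-likelihood test, 0.065 with DESeq2). The adenosine receptors Adora1, which pairs with D1 receptors, and Adora2a, which pairs with D2 receptors, had log2 fold changes of -0.25 (SE 0.10) and -0.23 (SE 0.47).

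**Figure D3:**
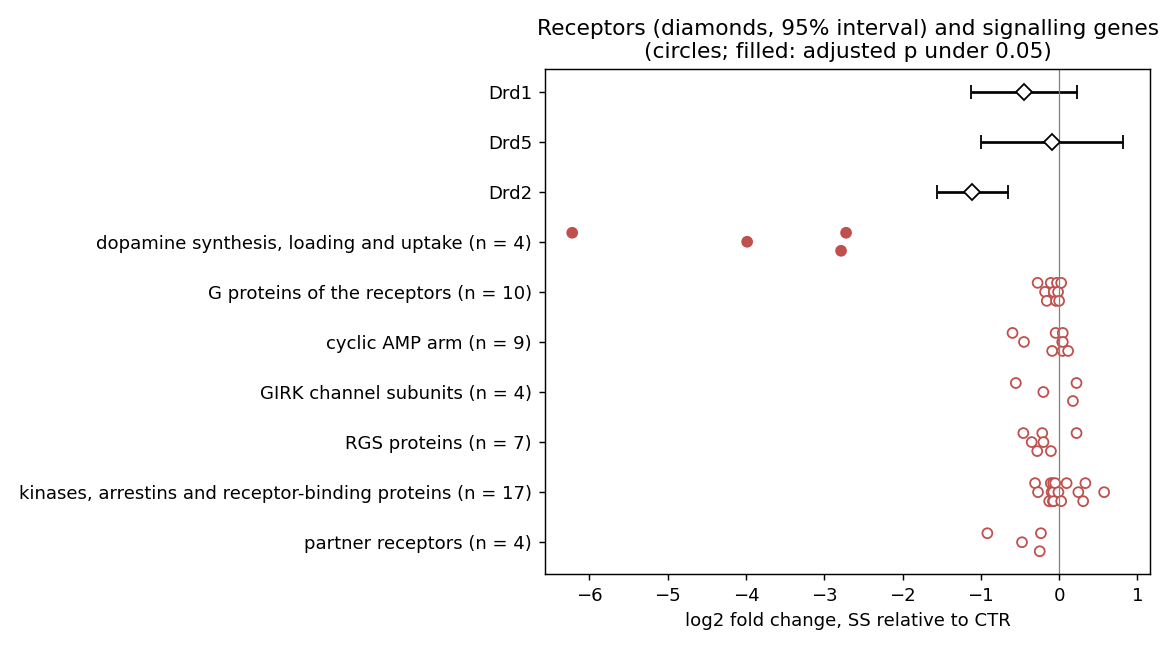
Log2 fold change of SS relative to CTR for the tested receptors (diamonds with the 95% interval) and for the genes of each signalling group (circles, filled at an adjusted p under 0.05 in edgeR's test). Only the 4 genes of dopamine synthesis, loading and uptake are filled, from -6.22 to -2.72, while the genes of the other signalling groups lie between -0.92 and 0.58.

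The genes closest to Drd2 in pattern over the 8 libraries, by Pearson's r of log2 CPM, were Fcf1 (0.97), Mapk10 (0.97) and Cadps2 (0.96), among 16537 genes of which 61 had an r above 0.9. These values are a description over libraries that also differ in depth and richness. The difference between the groups was left in, so a shared difference between SS and CTR is part of each r. Cadps2, which encodes a protein of vesicle exocytosis, averaged 78.9 CPM for CTR, against 30.8 for SS. For Drd1 the closest genes were Gm20628, Cacng6 and Anln (0.95, 0.95 and 0.94), and for Drd5 they were Cnot2, Magee1 and Fut10 (0.96, 0.95 and 0.95).

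**Figure D4:**
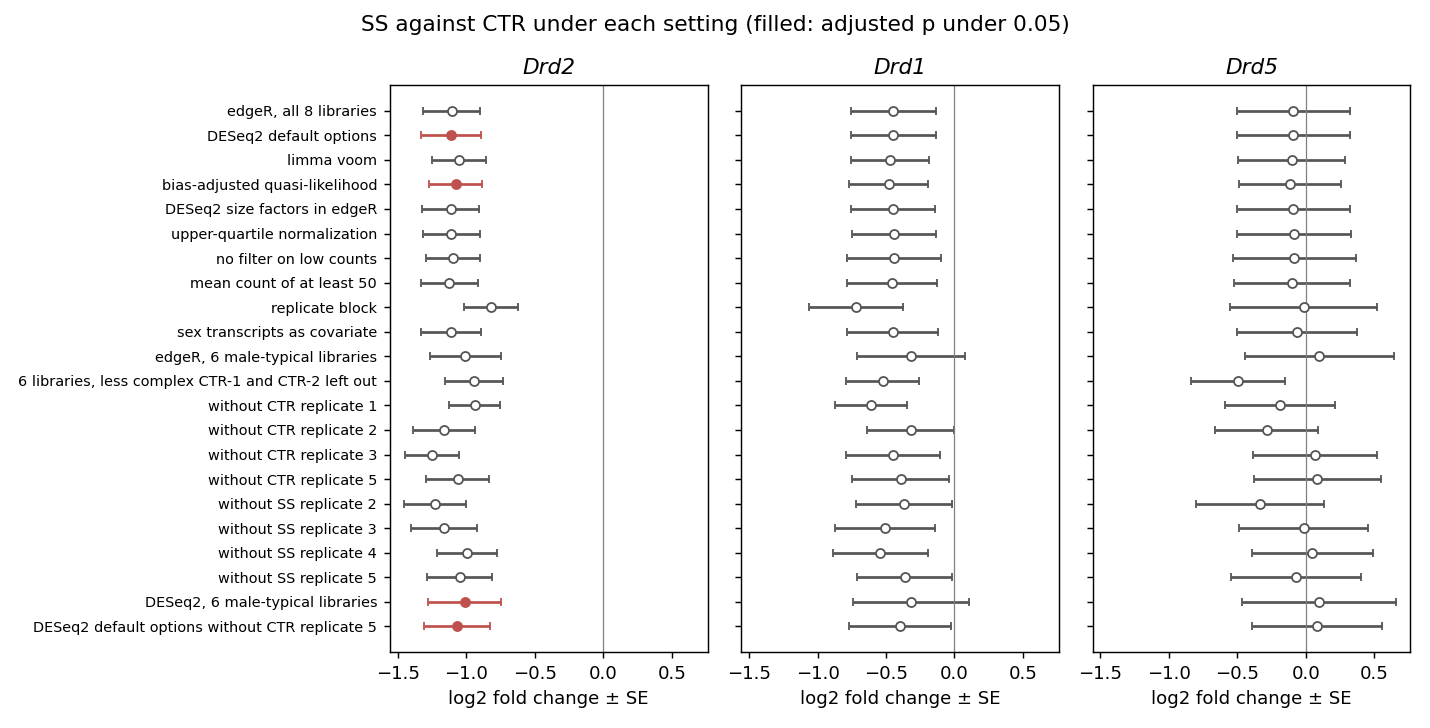
Log2 fold change (with SE) of Drd2, Drd1 and Drd5 in SS relative to CTR under each test, normalization, filter, covariate and set of libraries. Filled points have an adjusted p under 0.05. Drd2 stays between -1.25 and -0.82 and is filled with DESeq2 and with the bias-adjusted estimate of edgeR, while Drd5 lies on both sides of 0.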

How the data were processed

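The deposited values are whole counts without normalization, 1 column per mouse. To make them, the authors used Cutadapt for trimming, STAR for alignment of the 75 bp single-end reads (mouse build mm10) and htseq-count with the genes of Ensembl 102. Tool versions and the strand setting are not given in the sources used here. Counts were analysed with edgeR 4.0.16 in R 4.3.3: filterByExpr at its defaults (minimum count 10, minimum total 15), TMM, and the quasi-likelihood test at the version's defaults on group alone, with p-values adjusted by Benjamini-Hochberg (threshold 0.05). Log2 CPM used a prior count of 2. DESeq2 1.42.0, limma 3.58.1 voom and further alternatives were run, and the tests were tested on simulated data. Exon lengths and positions came from GENCODE M21 (GRCm38), promoters from RefSeq (GRCm38.p6).

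The 5 receptors, the gene lists and the tests were chosen with earlier results of these data known. Within each signalling list the text names genes past the threshold, otherwise the most abundant per length and those of lowest and highest log2 fold change, and for each tested receptor the 3 genes most alike in pattern. Rgs7, Arrb2, Nr4a2 and the markers named as without a count were chosen after their values were seen. One further marker gene is not reported here. Floors for a count of 0 are 3 counts and cover counting error only.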

Additional observations from a re-analysis of the deposited data

Results flagged for a closer look

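Libraries that stood apart within their group of 4 were sought with Dixon's ratio, the gap of an extreme value to the next one relative to the whole span, read against its 95% limit. Of 34 groups checked, 5 passed it, where chance gives 1.7, but 3 of the 5 have a ratio of 1 only because the other libraries were at 0. The library was CTR-5 or SS-5 in all 5, those whose sex transcripts went against the labels. For Drd3 the ratio was 1 in CTR-5, which had 26 counts while the other CTR libraries had none. For Drd4 the ratio was 1 in CTR-5 (3 counts) and 1 in SS-5 (9 counts), since the other libraries of both groups had none. Among the genes that Drd2 was set against, SS-5 stood above the rest of SS for Th (25.5 CPM, ratio 0.853) and for Slc18a2 (46.6 CPM, ratio 0.959). Without SS-5, the log2 ratio of Drd2 to Slc18a2 was 2.07 higher in SS, compared with 1.65 over all libraries. Neither Drd2 nor Drd1 nor Drd5 had a library past the limit in either group.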

How the results depend on the processing

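The lower Drd2 of SS kept its direction in every test, normalization, filter, covariate and set of libraries that was run. It passed the threshold with DESeq2 (log2 fold change -1.11), with the bias-adjusted estimate of edgeR (-1.08) and, in fits chosen after seeing the data, with DESeq2 on the 6 libraries with male-typical sex transcripts (-1.01, adjusted p = 0.010) and without CTR-5 (-1.07, adjusted p = 0.0015). In each of these 4 settings 1 receptor was called, compared with 0 in edgeR's quasi-likelihood test and 0 in that test with any library left out. With a library left out, Drd2 ranged from -1.25 to -0.94 and Drd1 from -0.61 to -0.32. Drd5 ranged from -0.33 to 0.085 and changed sign: it was 0.07 without CTR-3, 0.085 without CTR-5, 0.05 without SS-4, 0.10 over the 6 male-typical libraries with edgeR and with DESeq2, and 0.083 with DESeq2 without CTR-5. The cause was not tested. The deviations of libraries that share a replicate number had correlations of -0.0062, -0.0077 and 0.060. Those of libraries with different numbers ran from -0.094 to 0.045. The highest of all, 0.060, was that of CTR-5 with SS-5, both with female-typical sex transcripts. All were small, and the numbers were not taken as pairs. With the replicate block, Drd2 was -0.82 (adjusted p = 0.77), Drd1 -0.72 and Drd5 -0.02, and 9 genes were called in place of 14. DESeq2 called 81 genes in all and the bias-adjusted estimate 27, and over the 6 male-typical libraries edgeR called 9 and DESeq2 399. DESeq2 without CTR-5 called 684, and edgeR with a library left out 6 to 19. The ratios of Drd2 to other genes kept their direction in the settings run, and no p was computed for them with libraries left out. Drd3 and Drd4, with 48 and 12 counts in all, were removed by the filter on low counts before limma voom, the bias-adjusted estimate, the block and the sex covariate were fitted. The filter at a mean count of 50 removed them too.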
